A study of Petromyzon marinus with 2 samples.

Results

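PRDM13 and PRDM8 are 2 of the 24979 genes counted in single cells of the adult sea lamprey retina, chosen by name (PRDM13 is listed under the assembled identifier MSTRG.11350 and PRDM8 under MSTRG.2454). Both encode PRDM proteins, zinc finger factors with a PR domain that is related to the SET domain of histone methyltransferases and that act on transcription in developing neurons. In mice, PRDM13 lies downstream of PTF1A in the dorsal spinal cord, where it favours the inhibitory over the excitatory fate, and in the mouse retina it is needed for a subset of GABAergic and glycinergic amacrine cells, the interneurons of the inner retina. In mice, PRDM8 is needed for rod bipolar cells to mature and works with the bHLH factor BHLHE22 as a repressor.

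The retinas of post-metamorphic adult lampreys were dissociated and measured by droplet single-cell RNA-seq in 2 biological replicates, with 1 library each and no treatment or genotype to compare. The labels name papain dissociation and a fluorescence sort, but give neither the gate of that sort nor the number of animals behind a library. Replicate 1 held 12933 barcodes with 87882951 UMIs (unique molecular identifiers, 1 for each captured transcript) and replicate 2 held 15958 barcodes with 117426390 UMIs, of which 12903 and 15936 barcodes were kept as cells. The libraries shared 83 barcode sequences.

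PRDM13 had 19086 UMIs in 6424 of the 28839 cells and PRDM8 had 28757 UMIs in 6488 cells. Most cells with a member held few of its UMIs. Of all cells, 7.98% held 1 UMI of PRDM13 and 2.82% held 6 or more, while 7.53% held 1 UMI of PRDM8 and 6.29% held 6 or more. The largest count in 1 cell was 30 for PRDM13 and 46 for PRDM8. A cell was counted as positive with 1 UMI or more, so the share of positive cells depends on how deeply a cell was read, and the main shares are also given with every cell thinned to 2000 UMIs, which leaves out the shallower cells (120 of the glycine, 3080 of the GAD1, 357 of the SLC17A6 and 180 of the CHAT gate described next).

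Cells were placed in 4 gates by genes that name a transmitter. The glycine gate held cells with SLC32A1, the vesicular transporter of GABA and glycine, together with SLC6A9 or SLC6A5, the plasma membrane glycine transporters (5843 cells). The CHAT gate held cells with CHAT, which makes acetylcholine, and SLC5A7, which takes up choline (2239 cells). The GAD1 gate held cells with GAD1, which makes GABA, but with neither SLC6A9 nor SLC6A5 (14962 cells). The SLC17A6 gate held cells with SLC17A6, a vesicular glutamate transporter (1893 cells). A gate gene counted as present from 1 UMI, so a gene not seen in a cell may have been missed. The gates overlap, and 6540 cells lay in none. They are defined by these genes and not by cell type: RBPMS, an RNA-binding protein of ganglion cells in jawed vertebrates, was found in 12.4% and 9.33% of GAD1-gate cells (replicates 1 and 2), POU4F2, a ganglion cell factor there, in 0.190% and 0.174%, and BEGAIN, from the horizontal cell list, in 20.8% and 35.4%.

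The share of cells with PRDM13 was highest in the glycine gate. It was 48.8% in replicate 1 (exact 95% interval 46.9 to 50.7) and 46.5% in replicate 2 (44.7 to 48.3). In the GAD1 gate PRDM13 was found in 18.6% and 17.0% of cells, in the SLC17A6 gate in 14.2% and 13.8%, and in the CHAT gate in 10.3% of cells of each library. The glycine gate thus stood above the other gates in both libraries, and the intervals, which cover counting error only, did not meet. After thinning, the shares over both libraries were 28.3% in the glycine gate, 10.5% in the GAD1 gate, 7.94% in the SLC17A6 gate and 4.13% in the CHAT gate, the same order.

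PRDM8 had another order, with the GAD1 gate first. It was found in 32.8% (31.7 to 34.0) and 30.2% (29.3 to 31.2) of GAD1-gate cells, in 23.7% and 25.5% of SLC17A6-gate cells, in 16.7% and 18.5% of glycine-gate cells and in 6.35% and 10.4% of CHAT-gate cells. After thinning, PRDM8 was left in 21.4% of GAD1-gate, 12.6% of SLC17A6-gate, 7.51% of glycine-gate and 3.35% of CHAT-gate cells.

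The shares were set beside those in glial cells, taken as the background. In the 515 cells with at least 5 UMIs of GLUL and 1 of HES1, genes of Muller glia, PRDM13 was found in 5.77% and 6.57% and PRDM8 in 15.4% and 7.79%, at a median of 15052 UMIs a cell. Thinned to 2000 UMIs, these cells had PRDM13 in 1.17% and PRDM8 in 3.50%. Of them, 47.6% also fell in a gate, and 33.8% fell in the GAD1 gate. Glycine-gate cells held PRDM13 far more often than the glial cells although they were read to a median of only 6760 UMIs. Over both libraries PRDM8 was in 8.49% of CHAT-gate cells, near the 9.32% of the glial cells (3.35% against 3.50% after thinning). The libraries went opposite ways, with 6.35% against 15.4% in replicate 1 and 10.4% against 7.79% in replicate 2. Of the CHAT-gate cells, 33 held 3 to 5 UMIs of PRDM8 and 45 held 6 or more. The share alone therefore does not show a background level, and the source of these UMIs was not tested.

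Levels were compared between cells in exactly 1 gate, with the UMIs of all such cells of a library summed and given per 1000000 UMIs (CPM). PRDM13 reached 258 and 193 CPM in glycine-only cells, against 78.6 and 58.1 CPM in GAD1-only cells, 16.9 and 13.1 CPM in CHAT-only cells and 11.9 and 12.7 CPM in SLC17A6-only cells. The glycine-only values lay above those of the other classes named, and the GAD1-only values above both of the remaining classes. The 220 cells in both the glycine and the SLC17A6 gate had 201 and 162 CPM of PRDM13, between the glycine-only and the GAD1-only values of their library. The 6540 cells in no gate had 108 and 63.4 CPM of PRDM13, above the GAD1-only values of their library, and 104 and 58.1 CPM of PRDM8. PRDM8 reached 72.5 and 78.6 CPM in glycine-only cells, against 252 and 194 CPM in GAD1-only cells, 69.9 and 56.4 CPM in SLC17A6-only cells and 23.4 and 20.1 CPM in CHAT-only cells.

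**Figure D1:**
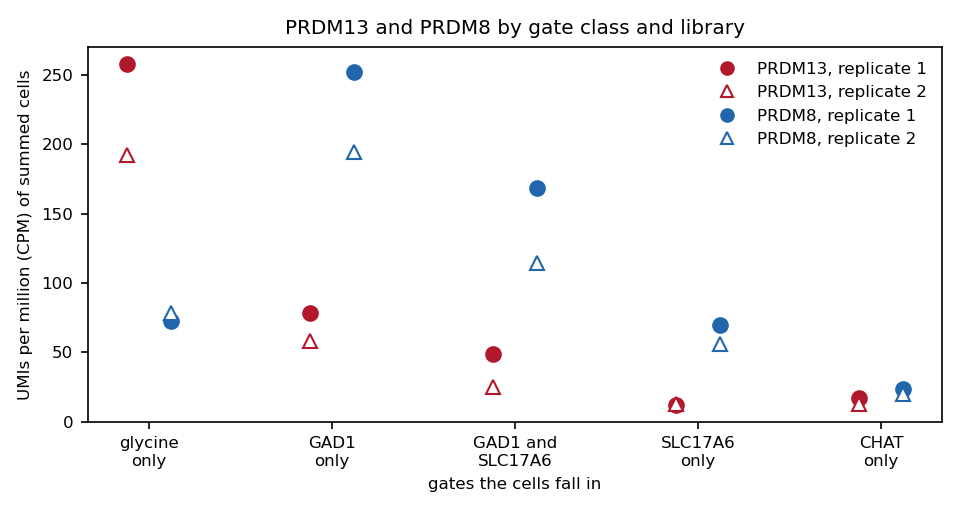
Level of PRDM13 (red) and PRDM8 (blue) in CPM (y axis, linear) in cells summed by the gates they fall in (x axis), with 1 point for each library (filled circles for replicate 1, open triangles for replicate 2). PRDM13 lies at 258 and 193 CPM in glycine-only cells and PRDM8 at 252 and 194 CPM in GAD1-only cells, each above its values in the other classes plotted.

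The sums were tested with edgeR's quasi-likelihood test over 13939 genes, with the library as a block and p-values adjusted by the Benjamini-Hochberg method over all of them. A gene was called at an adjusted p under 0.05 and a difference of at least 2-fold. In glycine-only against GAD1-only cells, where 8.41% of all genes were called in either direction, PRDM13 was higher by a log2 fold change of 1.68 ± 0.16 (SE, adjusted p = 7.19e-06) and PRDM8 was lower at -1.58 ± 0.24 (adjusted p = 0.000318). The members thus differed in opposite directions between these classes. Cells of 1 library are not replicates. With the library as a block, the p-values rest on how far class differences vary between these 2 libraries, pooled over the classes of the fit. That spread is moderated by the spread of all genes, and it may be partly technical.

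Against CHAT-only cells both members were higher in glycine-only cells, PRDM13 by 3.74 ± 0.21 (adjusted p = 1.53e-08) and PRDM8 by 1.65 ± 0.30 (adjusted p = 0.000922), where 13.3% of genes were called. Both were also higher in GAD1-only than in CHAT-only cells, PRDM13 by 2.06 ± 0.22 and PRDM8 by 3.23 ± 0.30 (adjusted p = 8.13e-06 and 2.48e-06; 12.2% of genes called). Since the share of PRDM8 in the CHAT gate lay near that of the glial cells, its folds over that class are folds over a low level. Without the cells of highest doublet score these PRDM8 folds were 2.93 in glycine-only and 5.16 in GAD1-only cells. Among CHAT-only cells, PRDM13 was found in 6.53%, against 6.41% of the glial cells.

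SLC17A6-only cells held PRDM13 in 4.85%, under the share of the glial cells. The SLC17A6 gate was read less deeply than the glial cells, at 5811 UMIs in its cells with neither member, so these shares are not matched for depth. GAD1-only cells exceeded SLC17A6-only cells by 2.38 ± 0.23 for PRDM13 (adjusted p = 2.67e-06) and by 1.77 ± 0.26 for PRDM8 (adjusted p = 0.000154), where 13.6% of genes were called. Glycine-only cells exceeded them by 4.06 ± 0.22 for PRDM13 (adjusted p = 1.22e-08), where 15.7% of genes were called, while PRDM8 differed by 0.19 ± 0.26 and was not called (adjusted p = 0.612). That difference was -0.03 in replicate 1 and 0.37 in replicate 2, and it turned to -0.67 after thinning (adjusted p = 0.0302) and to -0.45 without the cells of highest doublet score. Between SLC17A6-only and CHAT-only cells PRDM8 was higher in SLC17A6-only cells by 1.46 ± 0.33 (adjusted p = 0.00320; 16.8% of genes called), and PRDM13 differed by -0.31 ± 0.30 (adjusted p = 0.460).

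The 847 cells in both the GAD1 and the SLC17A6 gate had 48.8 and 24.97 CPM of PRDM13, against 78.6 and 58.1 CPM in GAD1-only cells, and 169 and 114 CPM of PRDM8, against 252 and 194 CPM. The PRDM13 difference of -0.91 ± 0.19 passed the adjusted p (0.00325) but not the 2-fold limit, with -0.63 in replicate 1 and -1.17 in replicate 2 and an adjusted p of 0.121 without the library block, and PRDM8 differed by -0.62 ± 0.24 (adjusted p = 0.0919). At 2 UMIs or more of each gate gene both passed, at -1.47 for PRDM13 and -1.13 for PRDM8. Between these classes 8.36% of all genes were called.

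Joint detection was described by the share of cells with both members beside the product of their separate shares, which is the share that independent detection would give. In the glycine gate 12.5% and 12.8% of cells held both, against a product of 8.14% and 8.61%. PRDM13 alone was found in 36.4% and 33.6% of these cells and PRDM8 alone in 4.22% and 5.67%. So most glycine-gate cells with PRDM8 also held PRDM13: 74.7% (70.4 to 78.6) and 69.4% (65.4 to 73.1) of cells with PRDM8, against 43.7% and 41.3% of cells without it. Over both libraries the share of both was 1.51 times the product, and 1.39 times after thinning.

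In the GAD1 gate exclusive detection of PRDM8 was the larger class. PRDM13 alone was found in 10.4% and 9.65% of cells, PRDM8 alone in 24.7% and 22.9%, and both in 8.18% and 7.33%, against a product of 6.11% and 5.13%. The ratio to the product was 1.39 with all UMIs and 0.995 after thinning to 2000 UMIs, where it was 0.821 in replicate 1 and 1.14 in replicate 2. The joint share in this gate moved with depth: the median was 9984.5 UMIs in GAD1-gate cells with both, 5728 in cells with PRDM13 alone, 9125 in cells with PRDM8 alone and 3975 in cells with neither. Depth also differed between the states of the glycine gate. There the median was 9889.5 UMIs in cells with both, 6678.5 with PRDM13 alone, 12620 with PRDM8 alone and 5959 with neither.

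In the SLC17A6 gate 6.90% and 5.38% of cells held both, against products of 3.36% and 3.51%, with a ratio of 1.75 with all UMIs and 1.10 after thinning. In the CHAT gate both were found in 2.43% and 3.25%, against products of 0.652% and 1.07%, with a ratio of 3.28, or 2.46 after thinning, when the joint share was 0.340% (0.137 to 0.699). The glial cells had a ratio of 4.88 with all UMIs, at 2.91% against 0.597%. They numbered only 515, and 47.6% of them also fell in a gate. Whether the CHAT-gate ratio comes from background was not tested.

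**Figure D2:**
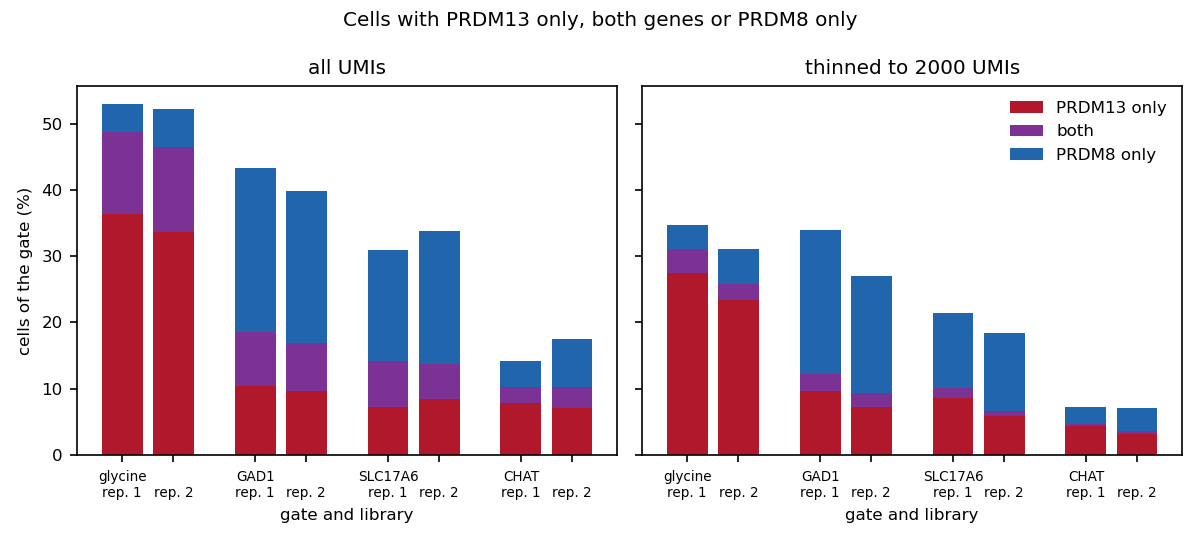
Percentage of cells of each gate (y axis, bars from 0) with PRDM13 only (red), both members (purple) and PRDM8 only (blue), in each library (x axis), with all UMIs on the left and every cell thinned to 2000 UMIs on the right. PRDM13-only cells form the largest class in the glycine gate (36.4% and 33.6%) and PRDM8-only cells in the GAD1 gate (24.7% and 22.9%). On thinning, the joint class shrinks most relative to its own share, though not always in percentage points.

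The level of each member was then compared between cells with and without the other, which uses only the gene that did not make the split. Each such split leaves 1 residual degree of freedom, so its p-value leans on the spread estimated over all genes. In the glycine gate PRDM8 had 92.7 and 90.3 CPM in cells with PRDM13, against 41.2 and 57.9 CPM in cells without it. It was higher by 0.87 ± 0.08 (adjusted p = 2.06e-10), under the 2-fold limit, where 5.65% of genes were called. The difference was 1.13 in replicate 1 and 0.62 in replicate 2, and its adjusted p was 0.151 without the library block. In the GAD1 gate PRDM8 had 223 and 210 CPM in cells with PRDM13, against 230 and 166 CPM without, a difference of 0.16 ± 0.09 (adjusted p = 0.196; 10.5% of genes called), which was -0.02 in replicate 1 and 0.35 in replicate 2 and turned to -0.17 after thinning. The values with and without PRDM13 did not overlap in the glycine gate and did in the GAD1 gate. With 2 libraries this is only a description, and how many other genes showed no overlap was not counted.

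The difference between these associations was itself tested, as an interaction over cells of exactly 1 gate. PRDM8 moved with PRDM13 more in glycine-only than in GAD1-only cells by 0.75 ± 0.20 on the log2 scale (adjusted p = 0.0348; 5.86% of genes called), with 1.14 in replicate 1 alone and 0.38 in replicate 2 alone, and the adjusted p was 0.230 without the library block. It passed the 2-fold limit after thinning (1.01). The converse interaction, PRDM13 by PRDM8 detection, was 0.20 ± 0.11 (adjusted p = 0.343; 3.44% of genes called), with 0.45 in replicate 1 and -0.05 in replicate 2. It was 0.74 after thinning (adjusted p = 0.0248) and 0.59 without the cells of highest doublet score (adjusted p = 0.00973), under 2-fold in both.

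In the CHAT gate the members went together at low levels. PRDM8 had 57.5 and 67.4 CPM in cells with PRDM13, against 19.5 and 29.6 CPM in cells without it, and PRDM13 had 75.3 and 53.3 CPM in cells with PRDM8, against 26.1 and 17.7 CPM in cells without it. PRDM8 was higher by 1.27 ± 0.15 in cells with PRDM13 (adjusted p = 3.11e-06; 4.17% of genes called) and PRDM13 by 1.49 ± 0.16 in cells with PRDM8 (adjusted p = 1.56e-10; 4.01% of genes called). Both were called, but neither was after thinning (adjusted p = 0.312 and 0.444) or without the library block (0.117 and 0.0763). These splits took all CHAT-gate cells, of which 473 lay in the glycine and CHAT gates only. Those 473 cells had 73.1 and 52.7 CPM of PRDM13, against 16.9 and 13.1 CPM in CHAT-only cells. For PRDM8 they had 21.1 and 44.5 CPM, against 23.4 and 20.1 CPM. The part of this overlap in the association was not tested. In the SLC17A6 gate PRDM8 was higher by 0.59 ± 0.14 in cells with PRDM13 (adjusted p = 0.0185; 5.34% of genes called) and PRDM13 by 0.80 ± 0.15 in cells with PRDM8 (adjusted p = 0.0466; 1.86% of genes called), both under 2-fold. The first was 0.85 in replicate 1 and 0.35 in replicate 2 and the second 1.07 and 0.54, and neither passed the adjusted p after thinning (0.43 and 0.06, adjusted p = 0.484 and 0.981) or without the library block (0.274 and 0.530). In the glycine gate PRDM13 was higher by 0.31 ± 0.07 in cells with PRDM8 (adjusted p = 0.0121; 3.25% of genes called) and in the GAD1 gate by 0.26 ± 0.07 (adjusted p = 0.0516; 9.04% of genes called). The glycine-gate value was 0.48 in replicate 1 and 0.14 in replicate 2, with an adjusted p of 0.964 without the library block, and the GAD1-gate value was 0.15 and 0.36.

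Within the glycine gate PRDM13 followed the transporter. It was found in 70.0% and 65.3% of cells with SLC6A9 but not SLC6A5, in 41.0% and 38.5% of cells with both transporters and in 20.6% and 16.6% of cells with SLC6A5 but not SLC6A9. PRDM8 had 25.6% and 26.9%, 11.3% and 12.3%, and 8.69% and 9.58% in the same cells, the same order at lower shares. Thinning left PRDM13 in 42.1%, 20.8% and 11.1% of the groups over both libraries and PRDM8 in 11.4%, 4.45% and 4.34%. Within SLC6A9-only cells the joint share of 21.6% was 1.22 times its product and 1.18 times after thinning. Glycine-gate cells with GAD1 had PRDM8 in 20.1% and 22.8%, against 12.2% and 11.7% of those without GAD1, while PRDM13 was at 47.0% and 45.0%, against 51.2% and 48.8%.

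Within the GAD1 gate, cells were grouped by listed subgroup genes. The study names TMEM121, PDE11A and NR4A2 as markers of ganglion cell subgroups, and also PRDM13 itself, together with FOXP1. Its text names no subgroup by SOHLH2, RXFP1 or RBPMS. PRDM8 was found in most cells with SOHLH2, a germline bHLH factor in mice (67.3% and 67.4%), with RBPMS (67.6% and 64.6%) and with TMEM121, a membrane protein (59.0% and 51.4%), whose PRDM13 shares were 16.4% and 12.5%, 12.8% and 12.8%, and 15.6% and 11.8%. Among cells with TMEM121 the joint share of 5.72% was 0.774 times the product with all UMIs and 0.370 times after thinning. Cells with RXFP1, the relaxin receptor, carried both members at like shares, PRDM13 in 45.5% and 42.9% and PRDM8 in 43.2% and 39.5%, and 24.5% of them over both libraries held both, against a product of 18.1% (6.87% against 5.84% after thinning). Cells with NR4A2, an orphan nuclear receptor, had PRDM13 in 33.5% and 24.0% and PRDM8 in 19.7% and 17.9%. Cells with PDE11A, a phosphodiesterase, had little of either, with PRDM13 in 9.69% and 7.54% and PRDM8 in 17.7% and 9.92%. These groups were read to a median of 7243 to 11516 UMIs, more than the 5728 UMIs of PRDM13-only cells, and a cell can fall in several of them.

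BHLHE22, the PRDM8 partner in mice, was found in 2063 GAD1-gate cells. Of these, 62.6% and 54.2% held PRDM8, while 7.85% in each library held PRDM13, against 6.41% of the glial cells. In the SLC17A6 gate, cells with CHTF18, from the bipolar cell list, had PRDM8 in 33.3% and 32.0% and PRDM13 in 8.19% and 6.45%, against 21.1% and 22.1% for PRDM8 and 15.8% and 17.5% for PRDM13 in those without CHTF18.

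**Figure D3:**
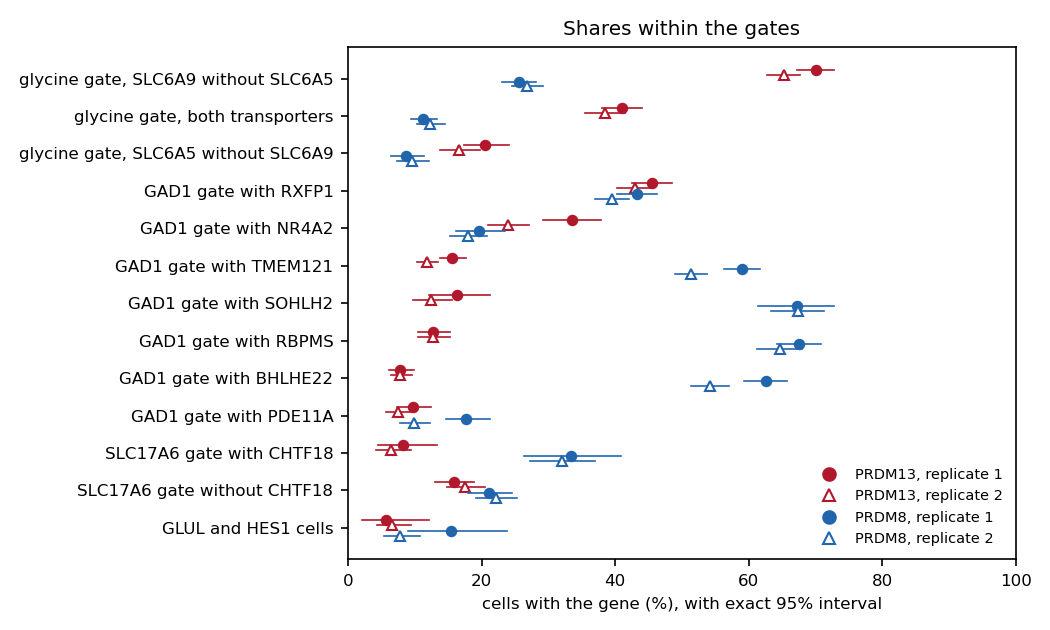
Percentage of cells with PRDM13 (red) and PRDM8 (blue) with its exact 95% interval (x axis) in groups of cells within the gates and in the glial background cells (y axis), filled circles for replicate 1 and open triangles for replicate 2. PRDM13 is highest in SLC6A9-only cells of the glycine gate (70.0% and 65.3%), PRDM8 in GAD1-gate cells with SOHLH2 or RBPMS, and the members meet in cells with RXFP1.

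The members were also described over 50 clusters, made from all cells without PRDM13, PRDM8, the gate genes or the cell type markers among the variable genes. A cluster was called high for a member where at least 25% of its cells in each library held it, a limit set with earlier results known. For PRDM13, 13 clusters were high, the lowest of them at 44.7% of cells, and the next cluster below was at 10.0%. For PRDM8, 13 clusters were high, from 30.4% to 98.9% of cells, and the highest other cluster was at 28.0%. With a finer division into 64 clusters, 15 were high for PRDM13, 16 for PRDM8 and 4 for both, and of these a GAD1-led cluster of 389 cells had PRDM13 in 32.4% and a glycine-led one of 401 cells in 30.2%, so the gap in PRDM13 was partly filled. Of the 50 clusters, 4 were high for both, 9 for PRDM13 alone, 9 for PRDM8 alone and 28 for neither. Of the 28, 13 had no gate that held most of their cells. Some were shallow, and the largest had 2511 cells at a median of 791 UMIs, with 49.6% in the GAD1 gate. The shallowest cluster high for a member had a median of 4079 UMIs. A share of 25% is harder to reach at low depth, so the 28 need not all lack both genes. Over the 50 clusters, which come from the same 2 libraries and differ in depth, log2(CPM + 10) of the members had a Pearson r of 0.02.

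Of the 9 clusters with most cells in the glycine gate, 6 were high for PRDM13 and 1 for PRDM8, and of the 24 led by the GAD1 gate, 7 were high for PRDM13, 12 for PRDM8 and 3 for both. The gates cut across clusters: a glycine-led cluster of 1323 cells, with PRDM13 in 84.4%, had 17.8% of its cells in the GAD1 gate. The clusters led by the CHAT or the SLC17A6 gate were high for neither member, but 1 SLC17A6-led cluster of 618 cells had PRDM8 in 22.7% and 31.8%, and in the finer division 1 of 3 SLC17A6-led clusters was high for PRDM8, with 33.6% and 34.3% of its 461 cells. At 1 extreme stood a GAD1-led cluster of 349 cells with PRDM8 in 100% and 97.8% and PRDM13 in 5.42% and 4.92%. At the other stood a glycine-led cluster of 698 cells with PRDM13 in 85.4% and 84.3% and PRDM8 in 5.07% and 3.03%.

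Inside the 4 clusters high for both, the joint share was close to the product of the shares. It could not exceed the lower member share, which was 69.2%, 67.8%, 65.0% and 53.0% in the clusters in the order given next. Where both member shares are high it also has a floor, so closeness to the product is partly fixed in advance. In the largest, a GAD1-led cluster of 749 cells, 65.0% held both, against a product of 60.7%. In the glycine-led one of 460 cells it was 59.8% against 58.1%, and in the other GAD1-led clusters 57.6% against 52.8% (545 cells) and 42.3% against 40.1% (402 cells). After thinning to 2000 UMIs the joint shares were 21.7%, 19.1%, 10.9% and 5.5% in the same order. PRDM13 was then in 34.2%, 55.3%, 25.1% and 38.75% of cells, and PRDM8 in 59.1%, 35.1%, 44.0% and 16.25%.

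**Figure D4:**
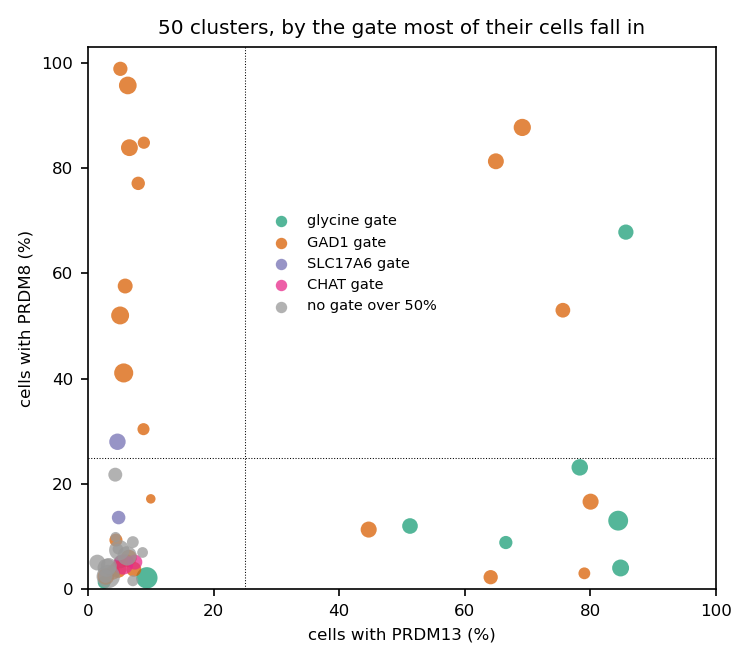
Percentage of cells with PRDM13 (x axis) and PRDM8 (y axis) in 50 clusters, coloured by the gate that most of their cells fall in, with the area growing with cell number and dotted lines at 25%. A group of clusters lies along each axis, 4 clusters lie high on both, and none lies between 10.0% and 44.7% of cells with PRDM13, where the finer division placed clusters at 30.2% and 32.4%.

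The genes whose level over the clusters was most like that of PRDM13 were DRD2, a dopamine receptor (r = 0.73), NCKAP5 (0.70), SH3TC1 (0.64), CHRNA2, a nicotinic receptor subunit (0.63), and CHST1, a sulfotransferase (0.63). For PRDM8 they were RBPMS (0.61), RAB15, a small GTPase (0.56), the chemokine CXCL14 (0.56), the zinc finger factor ZNF488 (0.55) and ADAM22 (0.55). SLC6A9 had r = 0.59 with PRDM13 and -0.19 with PRDM8, and BHLHE22 had -0.24 with PRDM13 and 0.47 with PRDM8. In the finer division, 4 of the 5 genes named for each member were again among its first 5.

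Cells of the GAD1 gate were then compared by state over 15314 genes: 1494 cells with PRDM13 only, 3538 with PRDM8 only, 1150 with both and 8780 with neither. Between PRDM13-only and PRDM8-only cells 579 genes (3.78%) were called higher and 736 (4.81%) lower, 8.59% in all. Against cells with neither, PRDM13-only cells had 403 genes called higher (2.63%) and 1111 lower (7.25%; 9.89% in all), and PRDM8-only cells had 419 higher (2.74%) and 1161 lower (7.58%; 10.3% in all). The last 2 comparisons share the cells with neither member.

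In PRDM13-only cells the galanin receptor GALR1 had 55.2 and 34.8 CPM, against 1.64 and 1.75 CPM in PRDM8-only cells, a log2 fold change of 4.63 ± 0.25 (adjusted p = 2.24e-06). MYRIP, a linker of myosin and RAB27, followed at 4.06 ± 0.09, CA8, a carbonic anhydrase-related protein of Purkinje cells in mammals, at 3.77 ± 0.16, NR4A2 at 3.58 ± 0.18 and DDC, which makes dopamine and serotonin, at 3.23 ± 0.24. DDC was low, at 19.1 and 8.48 CPM in PRDM13-only cells, against 1.64 and 1.12 CPM in PRDM8-only cells. For CA8, cells with both members had 119 and 78.2 CPM, nearer to the 141 and 140 CPM of PRDM13-only cells than to the 10.1 and 9.99 CPM of PRDM8-only cells. For GALR1 they had 9.05 and 8.05 CPM, far under the PRDM13-only cells.

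On the PRDM8-only side stood CXCL14, with 2.86 and 7.61 CPM in PRDM13-only cells, against 95.3 and 92.9 CPM in PRDM8-only cells (-4.16 ± 0.23, adjusted p = 2.25e-06). CPM, here the gene of carboxypeptidase M (-3.98 ± 0.22), was lower in PRDM13-only cells too. The endopeptidase gene ECEL1 had 1 UMI in PRDM13-only cells and 401 in PRDM8-only cells, a ratio of PRDM8-only to PRDM13-only cells of 112 (exact 95% counting interval 19.96 to 4429). Cells with both members had 13.9 and 19.5 CPM of CXCL14, between the exclusive states.

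**Figure D5:**
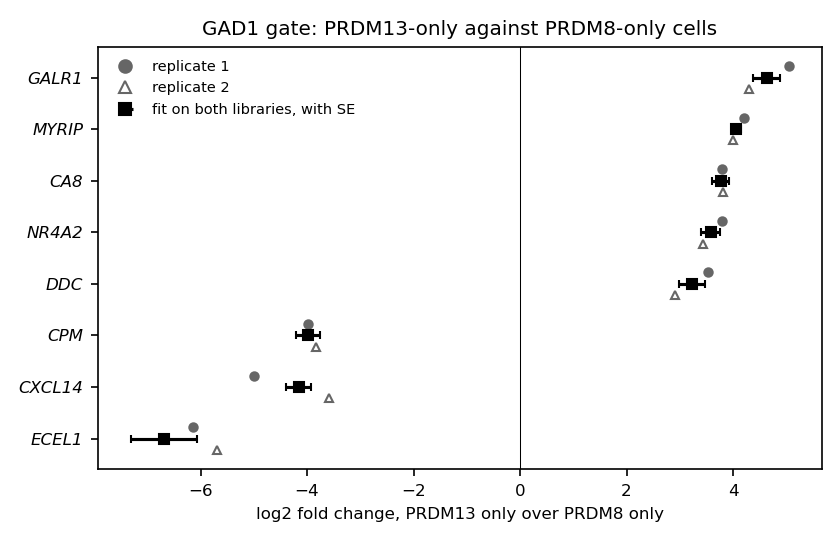
Log2 fold change of PRDM13-only over PRDM8-only cells of the GAD1 gate (x axis) for 5 named genes that were higher and 3 that were lower (y axis), with the edgeR estimate and its SE (squares) and the ratio within each library (circles and triangles). The rule that named these genes required both libraries to lie on the same side of 0, so that agreement is no result. The position of ECEL1 rests on 1 UMI in PRDM13-only cells, with none in replicate 1.

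Against cells with neither member, PRDM13-only cells were highest for DRD2, with 683 and 443 CPM, against 45.4 and 40.0 CPM (3.71 ± 0.17, adjusted p = 1.64e-06), and for GALR1, CA8, RXFP1 (2.98 ± 0.10) and SYTL2, a vesicle tether (2.53 ± 0.20). Lower in PRDM13-only cells were BAIAP3 (-2.29 ± 0.25) and TRIM46 (-2.23 ± 0.18). PRDM8-only cells were highest over neither for CXCL14, with 95.3 and 92.9 CPM, against 8.20 and 10.7 CPM (3.36 ± 0.16, adjusted p = 1.75e-06), and for ECEL1, CPM (carboxypeptidase M), the factor GRHL2 (2.70 ± 0.16) and ZNF488 (2.47 ± 0.14). They were lowest for SLC5A7 (-3.79 ± 0.23), CHAT (-3.57 ± 0.22), ISL1, a LIM homeobox factor of cholinergic amacrine cells in mice, PDE11A and the growth factor gene FGF6 (-2.86 ± 0.17).

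Markers of other cells moved with these states. The summed level of 3 of 6 starburst amacrine markers, CHAT and SLC5A7 among them, was 293 and 257 CPM in PRDM13-only cells, 61.3 and 85.8 CPM in PRDM8-only cells and 1093 and 721 CPM in cells with neither, and that of 4 of 6 horizontal cell markers was 136 and 229 CPM, 72.1 and 130 CPM, and 383 and 677 CPM. Of 8 markers of other amacrine cells 3 were found, but SLC6A9 and SLC6A5 among them are absent from this gate by its definition. The other, SLC32A1, was at 76.2 and 68.2 CPM in PRDM13-only and 10.3 and 12.3 CPM in PRDM8-only cells. Cells with neither had 34.9 and 28.7 CPM of it. The 3 of 9 ganglion cell markers found summed to 10.3 and 10.0, 46.5 and 32.3, and 30.9 and 20.6 CPM in these states. In PRDM8-only cells this was mostly RBPMS, at 44.5 and 30.6 CPM. ISL1, also in that sum, was at 1.82 and 1.46 CPM there, against 15.3 and 11.2 CPM in cells with neither. SLC32A1 and RBPMS differed in opposite directions between PRDM13-only and PRDM8-only cells. Cells with neither were also the shallowest, at a median of 3975 UMIs. The part of these markers and of depth in the gene counts between states was not tested. After thinning, all 30 differences selected by rule were still called, while the counts against neither were 237 higher and 712 lower for PRDM13-only cells and 192 and 475 for PRDM8-only cells.

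Of the other genes in the PRDM family list, 5 of 16 were found by name, and 3 were tested, of which PRDM15 and PRDM14 are given. PRDM15 lay at 20.2 and 17.1 CPM in glycine-only cells, against 20.6 and 17.7 CPM in GAD1-only cells (-0.08 ± 0.15, adjusted p = 0.751), and PRDM14 at 8.02 and 7.46 CPM, against 7.48 and 6.13 CPM (0.15 ± 0.19, adjusted p = 0.624). None of the 3 tested genes was called between glycine-only and GAD1-only cells, and their median log2 fold change was -0.08, against 0.01 over all genes. Between the states of the GAD1 gate PRDM15 and PRDM14 were not called in any of the 3 comparisons.

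Of 24 partners and targets known in mice, 4 were found and 2 tested. BHLHE22 had 4.84 and 7.27 CPM in PRDM13-only cells, against 50.2 and 42.8 CPM in PRDM8-only cells (-2.94 ± 0.17, adjusted p = 2.97e-06), and it was also higher in PRDM8-only cells than in cells with neither (1.22 ± 0.11, adjusted p = 3.76e-05). In cells with both it was at 11.6 and 12.2 CPM, under the 21.5 and 19.5 CPM of cells with neither. TFAP2D, an AP-2 factor, was lower than in cells with neither in PRDM13-only cells (-2.05 ± 0.18) and in PRDM8-only cells (-1.25 ± 0.14), with 93.7 and 78.6 CPM in cells with neither. By gate it was higher still, with 264 and 230 CPM in CHAT-only cells and 358 and 328 CPM in cells of the CHAT and GAD1 gates.

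Of 13 listed subgroup genes, 6 were found and tested, and since they were chosen on these samples their directions are no independent evidence. Between PRDM13-only and PRDM8-only cells 3 were higher (NR4A2, RXFP1 at 2.53 ± 0.10, and PDE11A at 1.14 ± 0.25) and 3 lower (SOHLH2 at -3.52 ± 0.44, RBPMS at -2.37 ± 0.17, and TMEM121 at -1.54 ± 0.16), with a median of -0.20, against 0.00 over all genes. PDE11A was nevertheless low in both exclusive states, at 15.2 and 17.0 CPM in PRDM13-only and 9.95 and 4.87 CPM in PRDM8-only cells. Cells with neither had 60.1 and 54.0 CPM of it. RXFP1 reached 990 and 774 CPM in cells with both, above the 563 and 366 CPM of PRDM13-only cells and the 82.4 and 72.0 CPM of PRDM8-only cells. SOHLH2 differed between the libraries, with 39.5 CPM in replicate 1 and 191 CPM in replicate 2 in PRDM8-only cells.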

How the data were processed

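The authors deposited, for each of the 2 libraries, raw UMI counts per gene and barcode. These counts come from Cell Ranger (version 6.0.1 in the submitters' processing notes, while the study's methods give a later version) with a retina transcriptome that the study built on the kPetMar1.pri genome. Genes were named from tables of the study and RefSeq synonyms, which gave symbols to 8013 of 24979 genes, so a list gene that was not found by name is not analysed here. Cells were kept within the study's first limits on UMIs and genes per cell. Its later limits for each cell class and its removal of low-quality and contaminated clusters were not applied. More cells were therefore kept here than in the study. The members and lists were chosen with earlier results of these data known.

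UMIs were summed per library and class and tested with edgeR 4.0.16 in R 4.3.3 (quasi-likelihood, TMM, low counts filtered, library as block, since the classes share a library). A call needed an adjusted p under 0.05 and 2-fold. Genes named in the state comparisons were the 5 with a symbol called furthest in each direction, at 10 CPM or more in the higher state and changed alike in both libraries; some of these, and 1 list gene, are not reported here. Genes named for likeness were the 5 with the highest Pearson r over clusters. Counts were also simulated with the same fixed spread for all genes and no library effect, and only well-counted genes were changed. Recovery on real counts can therefore be lower. With a log2 change of 1.5 the fit recovered 99% of changed genes between glycine and GAD1 classes (13474 genes) and 95% in the splits by a member (14758 genes). It recovered 84% in the interaction (14912 genes, with 5 false calls) and 97% between PRDM13-only and PRDM8-only states (15081 genes, with 2 false calls). Shares have exact binomial intervals at 95% confidence, for counting error only. Clusters were made with scanpy 1.11.5 and igraph 0.11.9 (3000 variable genes, 50 components, Harmony, Louvain resolution 0.8). Scrublet marked 0 and 1 cells as doublets, which is too few to have worked, so no cells were removed.

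Alternatives were DESeq2 1.42.0, no library block, no filter, gate genes at 2 UMIs or more, at least 400 genes per cell, thinning to 2000 or 1000 UMIs, cells in exactly 1 gate, all cells outside a gate, a single library and Louvain resolution 2. Detection at 3 UMIs and leaving out the top 10% of cells by Scrublet score were added after the data were seen.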

Additional observations from a re-analysis of the deposited data

Results flagged for a closer look

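The association of PRDM8 level with PRDM13 detection differed between the gates by the test of the difference itself, the interaction of edgeR's quasi-likelihood fit. PRDM8 was higher in cells with than in cells without PRDM13 by 0.75 ± 0.20 more on the log2 scale in glycine-only than in GAD1-only cells (adjusted p = 0.0348), with the same sign in 2 of 2 libraries (1.14 in replicate 1 and 0.38 in replicate 2). This interaction was under the 2-fold limit and so not called, and its adjusted p was 0.230 without the library block. No cause was tested.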

How the results depend on the processing

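Without the replicate block, the CHAT-gate differences of 1.27 for PRDM8 by PRDM13 and 1.46 for PRDM13 by PRDM8 were no longer called, nor were PDE11A and SOHLH2 in PRDM13-only against PRDM8-only cells, and the state counts fell to 338 higher and 452 lower for PRDM13 only against PRDM8 only, 255 and 438 for PRDM13 only against neither, and 238 and 424 for PRDM8 only against neither. With cells thinned to 2000 UMIs these counts were 286 and 497, 237 and 712, and 192 and 475, with fewer genes tested, the CHAT-gate differences were 1.32 and 1.36 and not called, the GAD1-gate differences turned to -0.17 for PRDM8 by PRDM13 and -0.10 for PRDM13 by PRDM8, PRDM8 in glycine-only against SLC17A6-only cells turned to -0.67, PRDM13 in GAD1 and SLC17A6 cells against GAD1-only cells was called at -1.09 and the interaction for PRDM8 at 1.01. With gate genes at 2 UMIs or more, the GAD1 and SLC17A6 cells were called lower at -1.47 for PRDM13 and -1.13 for PRDM8, and PRDM13 by PRDM8 in the SLC17A6 gate was called at 1.83. Without the top 10% of cells by Scrublet score, chosen after seeing the data, PRDM13 in GAD1 and SLC17A6 cells was called at -1.02, PRDM8 by PRDM13 in the glycine gate at 1.46 and the interaction at 1.18, the CHAT-gate differences were 2.63 and 2.79, while PRDM13 in SLC17A6-only against CHAT-only cells turned to 0.25 and PRDM8 in glycine-only against SLC17A6-only cells to -0.45. Against the mean of the other 3 single-gate classes PRDM13 was at 0.92 in GAD1-only cells and -2.25 in SLC17A6-only cells and PRDM8 at 0.08 in glycine-only cells. For the whole gate against all cells outside it these were -1.14, -0.98 and -1.25, so PRDM13 in the GAD1 gate and PRDM8 in the glycine gate changed sign. The joint share over its product moved in the glycine gate to 1.47 (2 UMIs), 1.39 and 1.43 (thinned to 2000 and 1000), 1.48 (cells in exactly 1 gate), 1.65 (3 UMIs of a member) and 1.65 (Scrublet), in the GAD1 gate to 1.23, 0.995, 0.915, 1.31 and 1.66 under the first 5 of these, in the SLC17A6 gate to 1.10 and 0.806 on thinning and 2.46 at 3 UMIs, and in the CHAT gate to 2.46 and 4.79 on thinning, 5.10 in exactly 1 gate and 5.03 with Scrublet. In a single library, PRDM8 in glycine-only against GAD1-only cells ran from -1.83 to -1.35, PRDM8 in glycine-only against SLC17A6-only cells from -0.03 to 0.37, PRDM13 in GAD1 and SLC17A6 cells against GAD1-only cells from -1.17 to -0.63, PRDM13 in GAD1-only against CHAT-only cells ran from 2.04 to 2.05, PRDM8 in SLC17A6-only against CHAT-only cells from 1.45 to 1.46 and PRDM13 in glycine-only against CHAT-only cells from 3.72 to 3.74. PRDM14 in PRDM13-only cells against neither changed sign without a call (0.014, Scrublet), and for PRDM15, PRDM8 only against neither turned to -0.0778 on thinning, also not called. The cause of these shifts was not tested. All 30 state differences selected by rule stayed called under DESeq2 and the 6 other tested settings. The state counts have no value in a single library, which leaves no residual degrees of freedom, and leaving out cells that Scrublet marked was not run. Joint detection at few UMIs a cell is the quantity that depth limits most.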
